A study of Mus musculus with 5 samples.

Results

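Messenger RNA of the translation machinery was compared between adult mouse retina and newborn mouse cortex. The genes were chosen by name: initiation and elongation factors (symbols starting Eif or Eef), release factors (Gspt), proteins of the mitochondrial ribosome (Mrpl and Mrps) and aminoacyl-tRNA synthetases (a letter followed by ars). By this rule 164 probes and 127 genes were found, of 8798 genes measured, and all 127 had a probe with a value on every array. Probes with several gene symbols, of which 27 hold a name of this kind, were not used. The rule uses names and no measured value, but it was set with earlier results of these data known.

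The retina RNA came from adult C57/B6 mice and the cortex RNA from Swiss-Webster mice on postnatal day 1, 1 pool per tissue. Both pools were hybridised together on 5 two-colour Agilent arrays, retina labelled with Cy5 and cortex with Cy3 each time, in a series made to measure how much expression values vary within a platform. The labels call the arrays technical replicates, so a p-value here reflects only how well labelling and hybridisation repeat with 1 pair of pools, and not the spread between animals. Tissue, age, strain and dye changed together and cannot be told apart. In RNA from whole tissue, fewer cells of a type and less RNA per cell cannot be told apart either. Values are log2 ratios of retina over cortex, mean ± SD over n = 5 arrays. The log base and the direction are inferred as likely, since no label states them, and with the opposite direction every sign below would turn. On the scale used, all 6 measured retina markers were past 2-fold higher in retina (2.78 to 4.30) and all 5 measured markers of newborn cortex were past 2-fold lower (-3.99 to -2.69). How far each spot stood above background is unknown, as no intensities were used.

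Cytosolic translation starts when eIF2 brings the initiator tRNA to the small ribosomal subunit, eIF3 and the eIF4 proteins load messenger RNA, and scanning factors find the start codon. Elongation factors then deliver aminoacyl-tRNAs made by the synthetases, and release factors end the protein. Mitochondria hold a separate ribosome and mostly their own synthetases, nearly all encoded in the nucleus, which make core subunits of the respiratory chain. Photoreceptors of the retina are packed with mitochondria, and newborn cortex still contains growing neurons and dividing progenitors.

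Genes of cytosolic translation were mostly lower in retina, while those of mitochondrial translation lay on both sides of 0. Of 62 cytosolic genes, 38 were lower in retina, 5 were higher and 19 did not pass limma's test against 0 (adjusted p under 0.05). The 62 include 13 regulators and related genes. Without these, 32 of 49 were lower and 5 higher, with a median log2 ratio of -0.268. Of 65 mitochondrial genes, 18 were lower, 26 were higher and 21 did not pass. Over all genes measured, 73.7% passed the test in either direction, 36.7% lower and 37% higher in retina, against 61.3% lower among the cytosolic genes and 27.7% lower and 40.0% higher among the mitochondrial ones. The median log2 ratio was -0.24 for the cytosolic genes, which is 1.18-fold, 0.03 for the mitochondrial genes and -0.0048 for all genes. These are small ratios: 103 of the 127 genes lay within 0.5 log2 of 0.

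On arrays 1 to 5 the cytosolic median was -0.25, -0.21, -0.23, -0.25 and -0.17. The mitochondrial median was 0.02, 0.07, 0.04, 0.04 and 0.01. The cytosolic median lay below the mitochondrial one on every array, and the ranges of the medians did not overlap. The difference between the medians of the gene means was -0.27, or 1.21-fold, and over arrays it was -0.26 ± 0.05 (SD, n = 5). It was the least on array 5, at -0.18, against -0.30 to -0.27 on the others.

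**Figure D1:**
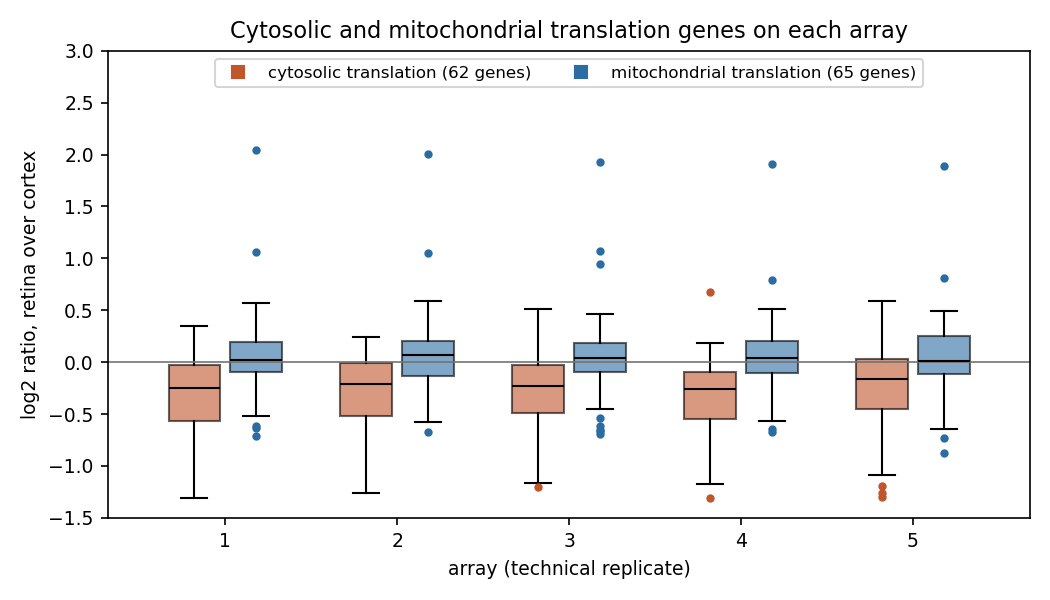
Box plots of the log2 ratio of retina over cortex on each array, for 62 genes of cytosolic translation and 65 of mitochondrial translation (line, median; box, middle 50% of genes; whiskers, to 1.5 times the box; points, genes beyond). The cytosolic median lies below 0 and below the mitochondrial median on all 5 arrays, and the point near 2 is Mrpl49.

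Few of the differences were large. With limma's 2-fold test, which asks whether a ratio is beyond a log2 ratio of 1, 1 gene was higher in retina (Mrpl49) and 2 were lower (Eef2k and Eif3l). These 3 of 127 genes compare with 6.63% of all genes past this test, 2.8% higher and 3.83% lower. Both lower genes were classed with cytosolic translation, Eef2k as a regulator, and the higher one with the mitochondrial ribosome. By their means, 123 of the 127 genes lay within 2-fold.

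**Figure D2:**
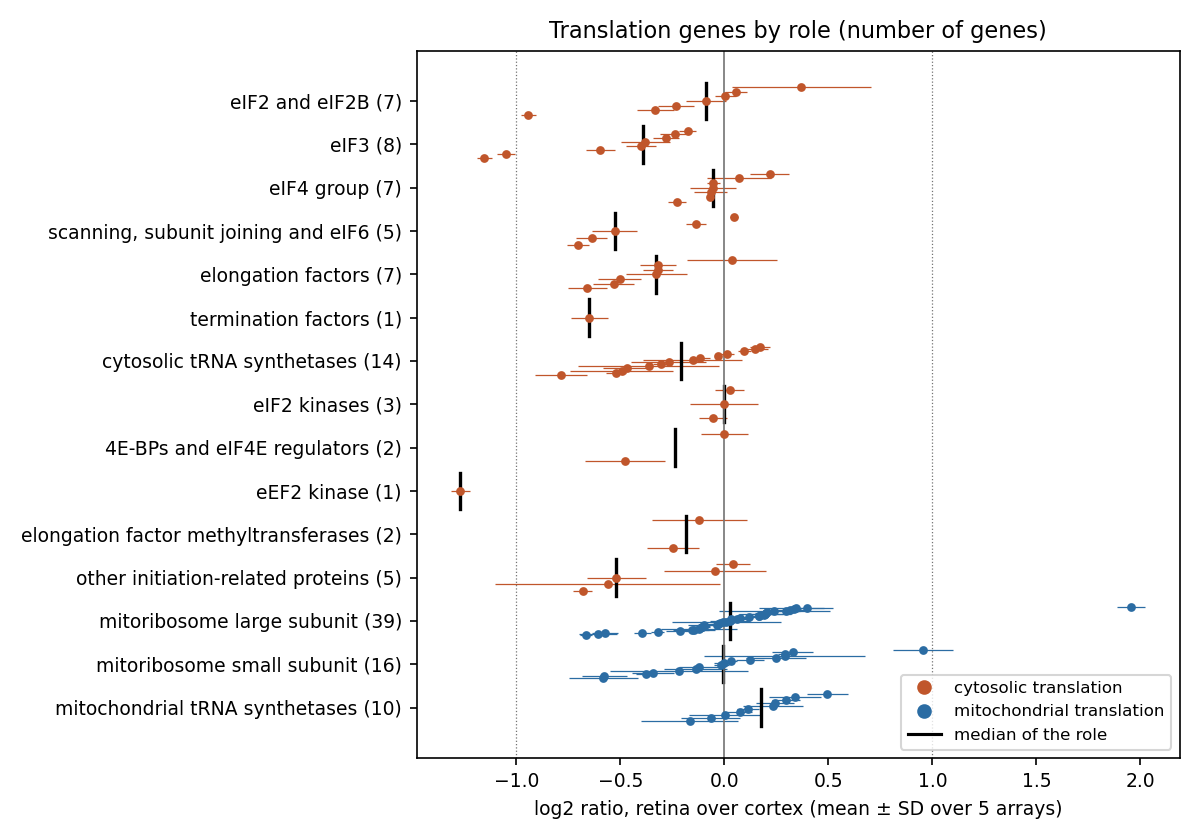
Log2 ratio of retina over cortex for each of the 127 genes, grouped by role (point, mean; bar, SD over 5 arrays; black line, median of the role; dotted lines, 2-fold). All 8 eIF3 genes lie below 0, while genes of both mitoribosome subunits lie around 0 with Mrpl49 at 1.96 and Mrps14 at 0.95 apart from them.

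Every measured subunit of eIF3 was lower in retina, by probes with values on all arrays. eIF3 is the scaffold that joins the small ribosomal subunit to the messenger RNA. All 8 subunits passed the test against 0 as lower, against 36.7% of all genes, with a median of -0.39. A second Eif3d probe, left out because it lacked a value on array 4, went the other way at 0.47 ± 0.60 (SD, n = 4). It was below 0 on array 1 only, and the Eif3d probe used was at -0.24. Eif3l, a subunit of the outer part of the complex, read -1.13, -1.11, -1.17, -1.18 and -1.19 on arrays 1 to 5. Its mean of -1.15 ± 0.03 was a 2.22-fold lower level in retina (limma 2-fold test, adjusted p = 0.00592). After quantile normalization the mean was -1.15 too, but the call was lost (adjusted p = 0.0885, limma). The arrays thus covered a narrow range with every value beyond 2-fold. Eif3a, the largest subunit and part of the core, had a mean of -1.05 ± 0.04 and did not pass the 2-fold test (adjusted p = 0.648), with its 2 probes at -1.27 and -0.83. The subunit nearest to 0 was Eif3k, at -0.18 ± 0.04 (limma test against 0, adjusted p = 0.000876).

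The promoter of Eif3l is shown because it was the lowest initiation factor. It spans 250 bases before to 50 after the annotated start (RefSeq, build GRCm38.p6), written 5′ to 3′, and the capitals mark an ETS core, CCGGAAG on the opposite strand, 35 bases before the start.
Eif3l, chr15:79074973-79075272, + strand: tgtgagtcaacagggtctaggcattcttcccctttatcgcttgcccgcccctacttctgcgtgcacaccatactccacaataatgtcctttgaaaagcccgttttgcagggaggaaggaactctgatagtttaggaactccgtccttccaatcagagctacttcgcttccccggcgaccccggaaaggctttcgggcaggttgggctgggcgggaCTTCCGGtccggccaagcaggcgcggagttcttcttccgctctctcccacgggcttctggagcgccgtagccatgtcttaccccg
That core was found on either strand in 38.6% of 44 cytosolic and 29.3% of 58 mitochondrial genes with a promoter sequence, and in 19.8% of 7126 measured genes. A match of letters is a description and not a binding site.

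The factors of scanning and subunit joining were lower in 4 of 5 cases (80%, against 36.7% of all genes), with a median of -0.53. Eif1ax, the X-linked form of the scanning factor eIF1A, read -0.78, -0.71, -0.65, -0.72 and -0.66, a mean of -0.70 ± 0.05 (limma test against 0, adjusted p = 2.17e-06). Eif5, which triggers GTP hydrolysis on eIF2 at the start codon, was at -0.64 ± 0.07 (adjusted p = 7.34e-06, limma). Both had 1 probe near or past 2-fold and 1 closer to 0: -1.25 and -0.16 for Eif1ax, and -0.99 and -0.29 for Eif5. Eif6, which keeps free large subunits from joining small ones, was lower by less, at -0.14 ± 0.05 (limma, adjusted p = 0.00374). Eif1b, a homologue of the start codon selection factor eIF1, was at 0.05 ± 0.02 and did not pass.

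Among eIF2, which carries the initiator tRNA, and eIF2B, which recharges eIF2 with GTP, 3 of 7 genes were lower (42.9%, near the 36.7% of all genes) and 1 was higher. Eif2s2, the beta subunit of eIF2, read -0.98, -0.91, -0.90, -0.97 and -0.96, a mean of -0.94 ± 0.04 (limma test against 0, adjusted p = 3.77e-07). Its 2 probes lay at -1.28 and -0.60. Eif2s3y, the Y-linked gamma subunit, was at -0.33 ± 0.09 (adjusted p = 0.00031, limma); it is read from males only, and the sex of the animals in the pools is not given in the sources used here. For eIF2B the arrays were less uniform: Eif2b2 read 0.22, -0.14, 0.51, 0.68 and 0.59, so that 1 array had the opposite sign. Its mean of 0.37 ± 0.33 passed (limma, adjusted p = 0.0329) but no longer did when array 1, 3, 4 or 5 was left out (means 0.29 to 0.41). Eif2b5, the catalytic subunit of eIF2B, was at 0.0045 ± 0.05.

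The eIF4 group, which binds the cap and unwinds the messenger RNA, stayed close to 0 with a median of -0.06. Of its 7 genes, 2 were lower (28.6%, against 36.7% of all genes) and 1 was higher (14.3%, against 37%). Eif4e, the cap-binding protein, read -0.13, -0.11, 0.00, -0.12 and 0.03, a mean of -0.07 ± 0.08 that did not pass (limma test against 0, adjusted p = 0.133). Eif4b, a cofactor of the helicase eIF4A, was higher in retina at 0.22 ± 0.09 (adjusted p = 0.0028, limma). The cap-binding homologue Eif4e2 was called lower at -0.23 ± 0.04, but its 2 probes differed in sign, at -0.65 and 0.19. Eif4a3, the helicase of the exon junction complex, was at -0.05 ± 0.03 and did not pass.

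Genes classed by symbol as elongation factors were lower in 6 of 7 cases (85.7%, against 36.7% of all genes), with a median of -0.33. The class holds Eef1e1 by its symbol alone. The exception was the neuronal and muscle isoform of eEF1A. eEF1A delivers aminoacyl-tRNA to the ribosome. Its widespread form, Eef1a1, read -0.68, -0.44, -0.50, -0.57 and -0.46, a mean of -0.53 ± 0.10 (limma test against 0, adjusted p = 4.51e-05). Eef1a2, the form that takes over in mature neurons and muscle, read -0.10, -0.0034, -0.02, -0.10 and 0.42, a mean of 0.04 ± 0.22 (limma, adjusted p = 0.683). Eef1a1 was below 0 on all 5 arrays, whereas Eef1a2 was near 0 on 4 and above it on array 5. The ratio of Eef1a2 lay above that of Eef1a1 on every array, by 0.57 ± 0.18 (SD, n = 5). The 5 probes of Eef1a1 spread from -0.90 to -0.02, which is wider than that difference.

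Eef1b2, a subunit of the complex that reloads eEF1A with GTP, was the lowest of the elongation factors at -0.66 ± 0.09 (limma test against 0, adjusted p = 1.42e-05). Its 2 probes were at -1.29 and -0.03. Eif5a, which helps the ribosome through difficult peptide bonds, was at -0.32 ± 0.09 (limma, adjusted p = 0.000385). The only termination factor found by the naming rule was Gspt1, which encodes the release factor eRF3a. It was at -0.65 ± 0.09 (limma, adjusted p = 1.35e-05), with 3 probes at -1.08, -0.67 and -0.20. The termination gene Etf1, outside that rule and named after its value was seen, was higher in retina. Its mean was 0.14 ± 0.05 (limma test against 0, adjusted p = 0.00285).

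The regulator farthest from 0 was Eef2k, the kinase that inhibits the elongation factor eEF2 and slows elongation. It read -1.31, -1.26, -1.20, -1.31 and -1.26, so every array was beyond 2-fold. Its mean of -1.27 ± 0.04 was 2.41-fold lower in retina (limma 2-fold test, adjusted p = 0.000539). That call rests on the mean of 2 probes at -1.84 and -0.69, and the probe with the smaller SD alone did not pass (adjusted p = 1, limma). The substrate gene, Eef2, was not analysed here.

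None of the 3 measured kinases that phosphorylate eIF2 under stress passed the test against 0 (limma), at an adjusted or unadjusted p. Eif2ak1, activated by lack of heme, was at 0.03 ± 0.07, Eif2ak3, which responds to stress in the endoplasmic reticulum, at -0.0019 ± 0.16, and Eif2ak4, which senses amino acid shortage, at -0.05 ± 0.07. Without array 5, Eif2ak4 was at -0.08 and passed (limma, adjusted p = 0.0482). The 4E-BPs hold eIF4E inactive until mTOR phosphorylates them. Eif4ebp1 read -0.74, -0.33, -0.59, -0.47 and -0.26, a mean of -0.48 ± 0.19 (limma, adjusted p = 0.00124), while Eif4ebp3 was at -0.00042 ± 0.11. Eif4ebp1 was below 0 on every array, and Eif4ebp3 was scattered around 0.

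The remaining genes of the cytosolic group were initiation-related proteins and modifying enzymes. Eif2a, an alternative carrier of initiator tRNA, was at -0.68 ± 0.04 (limma test against 0, adjusted p = 1.84e-06). Eif4enif1, which takes eIF4E into the nucleus, read -0.79, -0.65 and -1.30 on arrays 2, 4 and 5 but lay within 0.1 of 0 on the rest. Its mean of -0.56 ± 0.54 (limma, adjusted p = 0.04) no longer passed when array 2, 4 or 5 was left out (means -0.54 to -0.38). Eif1ad was at 0.04 ± 0.08, but at -0.69 (limma, adjusted p = 0.0399) when a second probe with exact 0 values was kept. Of 2 methyltransferases of eEF1A, Eef1akmt1 was lower at -0.25 ± 0.12 (limma, adjusted p = 0.00432), and Eef1aknmt did not pass at -0.12 ± 0.23.

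The cytosolic tRNA synthetases join each amino acid to its tRNA. They were lower in 8 of 14 cases (57.1%, against 36.7% of all genes) and higher in 3 (21.4%, against 37%). The higher ones were Nars, Sars and Iars, named after their values were seen, at 0.10 to 0.17. The median of the 14 was -0.21. Gars and Kars each encode both the cytosolic and the mitochondrial enzyme, and without them 6 of 12 were lower, with a median of -0.13. Gars, the glycyl-tRNA synthetase, read -0.82, -0.79, -0.87, -0.87 and -0.57, a mean of -0.78 ± 0.12 or 1.72-fold lower (limma test against 0, adjusted p = 1.74e-05). Every array was below -0.5, with array 5 the closest to 0. Hars, for histidine, was at -0.52 ± 0.05, and Kars, for lysine, at -0.30 ± 0.04. Wars, for tryptophan, was at 0.01 ± 0.03 and did not pass (limma, adjusted p = 0.639).

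Several synthetase genes are known targets of ATF4, the transcription factor of the integrated stress response, which binds a composite C/EBP-ATF element. The letters TGATGNAAN were therefore looked for on both strands of the promoters. They were found in 4 of the 7 cytosolic synthetases with a promoter sequence (57.1%), in 0 of 27 cytosolic factors and in 0 of 58 genes of mitochondrial translation, against 2.75% of the 7126 measured genes. The fifth gene with the element was Eef2k. The 4 synthetase stretches are shown to compare the element, 5′ to 3′ on the strand of the gene (RefSeq, build GRCm38.p6), with the element in capitals.
Gars, chr6:55037945-55038003, + strand: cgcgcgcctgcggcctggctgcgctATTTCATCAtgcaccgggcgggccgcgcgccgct
Iars, chr13:49682111-49682169, + strand: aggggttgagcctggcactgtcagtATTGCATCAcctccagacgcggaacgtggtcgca
Tars, chr15:11399641-11399699, - strand: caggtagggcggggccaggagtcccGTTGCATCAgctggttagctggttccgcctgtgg
Yars, chr4:129189881-129189939, + strand: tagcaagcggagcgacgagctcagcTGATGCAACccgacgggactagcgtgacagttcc
In Gars, Iars and Tars the element runs on the strand opposite to the gene, and in Yars on the same strand. It begins 31 bases before the annotated start in Gars and 16 before it in Tars, and 6 and 3 bases after it in Iars and Yars. The 4 genes did not share a ratio: Gars was at -0.78, Yars at -0.12, Tars at -0.03 and Iars at 0.10.

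For 7 amino acids both the cytosolic enzyme and its separate mitochondrial counterpart were measured, and in all 7 the cytosolic mean was the lower one. Over the pairs and arrays, 34 of 35 differences were below 0, and the exception was serine on array 5 at 0.01. The 5 arrays repeat the same pools, so the 35 differences are not independent. The difference, cytosolic minus mitochondrial, was widest for valine (Vars and Vars2) at -0.71 ± 0.16, then arginine at -0.61 ± 0.23 and histidine at -0.52 ± 0.17. It was -0.40 ± 0.10 for isoleucine, -0.22 ± 0.14 for tryptophan, -0.15 ± 0.12 for serine and -0.10 ± 0.05 for threonine. For arginine the size rests on 1 Rars probe, at -0.49. A second Rars probe, left out because it lacked a value on array 4, had the opposite sign at 0.28 ± 0.34 (SD, n = 4). An exact two-sided sign permutation over the 5 arrays gave p = 0.125 for serine and p = 0.0625 for each of the other pairs, the smallest p that this permutation can give. The pairs are those with both enzymes measured, and most of their genes were named after the values were seen.

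**Figure D3:**
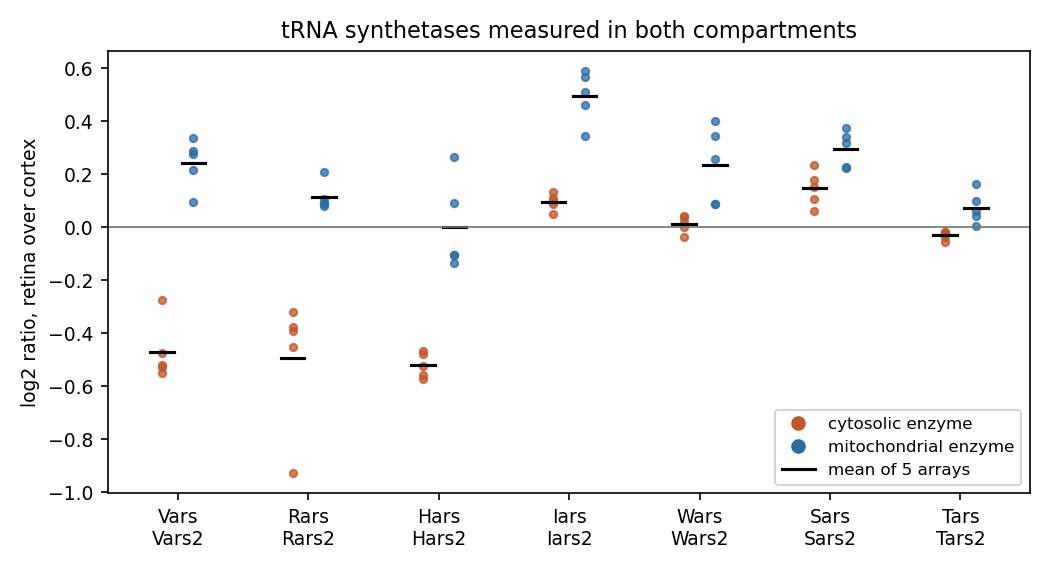
Log2 ratio of retina over cortex for 7 pairs of cytosolic and mitochondrial tRNA synthetases (points, the 5 arrays; black line, their mean). The cytosolic mean is below the mitochondrial one in each pair, by -0.71 for Vars and by -0.10 for Tars, where the points lie close together.

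Mitochondrial synthetases were higher in 6 of 10 cases (60.0%, against 37% of all genes) and lower in 0 (against 36.7%). These calls are by limma's test against 0, and the median was 0.18. At an unadjusted p under 0.05, 7 were higher and 0 lower. Iars2, for isoleucine, read 0.57, 0.59, 0.46, 0.51 and 0.34, a mean of 0.49 ± 0.10 (adjusted p = 6.76e-05, limma). Mars2, for methionine, was at 0.34 ± 0.13 (limma, adjusted p = 0.00108). Both were above 0 on every array. Hars2, for histidine, was at 0.0022 ± 0.17.

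Of the 55 genes classed by symbol with the mitochondrial ribosome, 20 were higher in retina, 18 were lower and 17 did not pass. Their median was 0.01. These shares, 36.4% higher and 32.7% lower, lie near the 37% and 36.7% of all genes. Subunits were assigned by symbol alone too. The large subunit had 15 higher and 13 lower of 39, with a median of 0.03, and the small subunit 5 higher and 5 lower of 16, with a median of -0.0084. Means of 53 of the 55 lay between -0.7 and 0.4. The other two were Mrpl49 and Mrps14.

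Mrpl49, a protein of the large subunit, read 2.05, 2.01, 1.93, 1.91 and 1.89. Its mean of 1.96 ± 0.07 was 3.88-fold higher in retina (limma 2-fold test, adjusted p = 2.52e-06), and 99.1% of all genes measured lay below it. It rests on 1 probe. In the RefSeq table the gene overlaps Syvn1, an E3 ubiquitin ligase, which was at 0.19 ± 0.08 (limma test against 0, adjusted p = 0.0028); the part of this overlap in the value of Mrpl49 was not tested. Mrps14, a protein of the small subunit, read 1.06, 1.05, 1.07, 0.79 and 0.81, a mean of 0.95 ± 0.14 (limma test against 0, adjusted p = 1.23e-05). Arrays 4 and 5 were lower than the rest, and the gene did not pass the 2-fold test.

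At the other end, Mrpl30 of the large subunit was at -0.66 ± 0.03 (limma test against 0, adjusted p = 1.2e-06). Mrps15 of the small subunit was at -0.58 ± 0.17 (limma, adjusted p = 0.000256), with array 5 at -0.88 and the others at -0.54 to -0.48. Mrpl47 and Mrps18b were nearest to 0 in their subunits, at -0.01 ± 0.06 and -0.0013 ± 0.05.

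The promoter of Mrpl49 is shown because the gene stands apart from the other mitoribosomal genes. It is written like that of Eif3l, and none of the 3 motifs searched was found in it.
Mrpl49, chr19:6057706-6058005, - strand: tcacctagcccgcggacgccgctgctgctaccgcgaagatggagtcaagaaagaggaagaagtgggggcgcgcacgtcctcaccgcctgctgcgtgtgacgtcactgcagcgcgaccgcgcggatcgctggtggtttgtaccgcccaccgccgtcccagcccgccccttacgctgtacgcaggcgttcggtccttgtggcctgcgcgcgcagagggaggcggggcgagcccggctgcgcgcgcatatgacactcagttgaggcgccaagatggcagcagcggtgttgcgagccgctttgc
NRF-1 is a transcription factor known for nuclear genes of mitochondria. Its core letters CGCATGCG were in 13.8% of the 58 mitochondrial and 4.55% of the 44 cytosolic genes with a promoter sequence, and in 4.24% of the measured genes. In all, 102 of the 127 genes had a promoter sequence in the table.

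Probes of the same gene often lay apart. Of the 127 genes, 27 had several probes with a value on all arrays. The range of their probe means, highest minus lowest, had a median of 0.37 log2. The median SD between arrays was 0.085 over all genes, which is an unlike measure in another set of genes. In 7 of the 27 the probes differed in sign, and in 11 they lay over 0.5 apart. The widest range was 1.27, in Eef1b2.

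**Figure D4:**
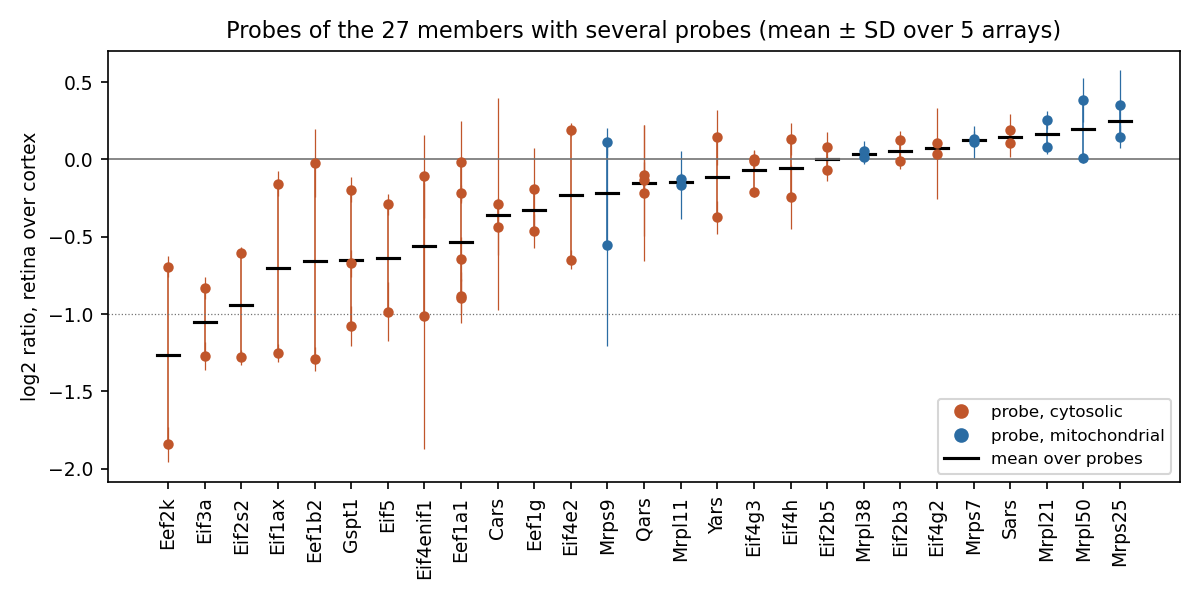
Log2 ratio of retina over cortex of each probe for the 27 genes with several probes (point, mean; bar, SD over 5 arrays; black line, mean over probes; dotted line, 2-fold lower). Probes of Eef2k lie at -1.84 and -0.69 and those of Eef1b2 at -1.29 and -0.03, while those of Mrps7 nearly coincide.

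Other genes of the same pathways were read from lists of genes with other names. Over all genes measured, 36.7% were lower and 37% higher, and the counts of each list are to be read beside these shares. The cytosolic ribosomal proteins had 34 lower and 9 higher of 50 measured, with a median of -0.39. The respiratory chain subunits, whose core the mitochondrial ribosome makes, had 38 higher and 15 lower of 60, with a median of 0.17. The mitoribosome median of 0.01 lay between these values. No test was made between these lists.

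Among other cytosolic initiation, termination and recycling genes, 7 of 12 were lower and 3 higher. The farthest were Bzw2 at -1.01 ± 0.10 and Bzw1 at -1.002 ± 0.06, which mimic eIF5 and make start codon choice stricter; neither passed the 2-fold test. Of 5 further genes of the cytosolic synthetases and their complex, 3 were lower, with the scaffold protein Aimp2 at -0.75 ± 0.03 and Farsb, the beta subunit for phenylalanine, at -0.44 ± 0.10. Both lists had negative medians, -0.19 and -0.18.

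Mitochondrial translation factors and assembly proteins had 6 higher (42.9%, near the 37% of all genes) and 3 lower (21.4%) of 14. The farthest were Guf1, a GTPase of the mitochondrial ribosome, at -0.81 ± 0.37 and Fastkd2, needed for its assembly, at -0.70 ± 0.42. Both varied widely between arrays. Mitochondrial tRNA modification enzymes and related genes had 5 higher (41.7%, also near that share) and 3 lower (25%) of 12. Nsun4, a methyltransferase of mitochondrial ribosomal RNA, was at 0.81 ± 0.28 and Hsd17b10, a subunit of mitochondrial RNase P, at -0.76 ± 0.10. Dap3 and Ptcd3, mitoribosomal proteins with other names, were lower at -0.21 ± 0.08 and -0.28 ± 0.05.

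Signalling genes upstream of translation lay on both sides of 0. In the mTOR and MNK list 3 of 11 genes were higher and 3 lower. That is 27.3% each, against 37% higher and 36.7% lower over all genes. Rraga, a GTPase that brings mTORC1 to the lysosome, was at -0.90 ± 0.11 and Rptor, the scaffold of mTORC1, at 0.78 ± 0.09. In the integrated stress response list 7 of 15 were higher (46.7%) and 4 lower (26.7%). Phgdh, which starts serine synthesis, was at -1.98 ± 0.04 and Trib3, a pseudokinase induced by stress, at 1.69 ± 0.21. Both passed the 2-fold test (limma, adjusted p = 9.18e-07 and 0.00113). Ddit4 passed it too, at 1.44 ± 0.06 (limma, adjusted p = 7.66e-05). Atf4 was higher at 0.78 ± 0.09 (limma test against 0, adjusted p = 5.71e-06) and did not pass the 2-fold test. Ddit4 and Atf4 were named after their values were seen.

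Of the markers of dividing cells, 8 of 12 were lower in retina and 1 higher, with a median of -0.46. Mcm6, of the replicative helicase, was at -1.82 ± 0.07 and Rrm2, which makes deoxynucleotides, at -1.80 ± 0.12. The higher one was Mcm2, of the same helicase, at 0.83 ± 0.11, named after its value was seen. The array medians of the dividing-cell markers were -0.50, -0.67, -0.48, -0.44 and -0.45. All arrays used the same pools, so this spread reflects only labelling and hybridisation. Markers of other cell types that the pieces could hold were lower in 8 of 11 cases and higher in 2, with the fibroblast protein Postn at -1.86 ± 0.27 and the red cell globin Hbb-b2 at -1.66 ± 0.07. The higher ones were the collagen gene Col1a1 at 0.52 ± 0.05 and the lens crystallin gene Crygb at 1.22 ± 0.24, also named after their values were seen. The values are ratios, so no marker level at 0 can be read from them. Their part in the ratios of the translation genes was not tested.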

How the data were processed

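The deposited table holds 1 signed value per probe and array, 21446 probes in all, taken as the authors' log10 ratios of Cy5 (retina) over Cy3 (cortex). The base is likely because values stop at exactly 2 and -2, where 5 lie; the direction is likely from the dyes and the order of tissues in the labels. How the authors corrected background and normalized the dyes, and with which software, is not given in the sources used here. Column medians were 0 on arrays 1 to 4 and -7.32e-05 on array 5, centred by an unknown method.

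Values were multiplied by 3.32 to give log2, and exact zeros were treated as missing. The platform annotation gave 1 symbol for 11813 probes and several for 559; 11782 matched RefSeq (GRCm38.p6) by gene identifier. A gene's value was the mean of its probes with values on all 5 arrays: 11500 probes, 8798 genes. limma version 3.58.1 in R version 4.3.3 fitted an intercept per gene, tested against 0 (eBayes) and against 2-fold (treat), two-sided, with Benjamini-Hochberg adjustment over all genes at 0.05. "Higher" and "lower" in counts mean past the test against 0. The procedure was tested on simulated data.

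The members, lists and tests were chosen with earlier results of these data known. Named were genes past the 2-fold test, the 2 farthest from and 1 nearest to 0 in each role, a list of core genes whatever their values, and the 2 farthest genes of each other list. Of the core genes, Eef2, Eif4g1, Eif4ebp2, Eif2s1, Eif2s3x, Eif2ak2, Eif5a2, Gspt2 and Mars were not analysed here. Alternatives changed centring, scaling, missing values, exact 0, the probe rule, the prior, the log base, the minimum fold, the members and each array left out. The number of arrays limits the precision.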

Additional observations from a re-analysis of the deposited data

Results flagged for a closer look

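Of 47 results checked for an array far from the other 4, 5 were found; chance gives about 5% of those checked. Eef1a2 was at 0.42 on array 5 and at -0.10 to -0.0034 on the others. Gars was at -0.57 on array 5, against -0.87 to -0.79. Mrps15 was at -0.88 on array 5, against -0.54 to -0.48. Eef1b2 was at -0.82 on array 1, against -0.63 to -0.60. The difference between the cytosolic and mitochondrial medians was -0.18 on array 5, against -0.30 to -0.27. Array 5 was the distant one in 4 of these 5, in both directions, and the cause was not tested.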

How the results depend on the processing

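The log base set the size of every ratio. With the deposited values read as log2, 0 of the 127 genes passed limma's 2-fold test, adjusted or at an unadjusted p under 0.05. Of all genes, 0.0796% passed it on that scale by adjusted p. The cytosolic median was then -0.073, the mitochondrial median 0.0093 and their difference -0.082. Against 3 genes past 2-fold, the median probe (the lower of 2) gave 7 (5.51% of the 127, against 7.08% of all genes). A minimum of 1.5-fold gave 10 (7.87% against 16.0%). Quantile normalization gave 2 (1.57% against 6.42%), without Eif3l (-1.15, adjusted p = 0.0885, limma). The mitoribosomal proteins alone had a median of 0.0100. Leaving out each array in turn gave 3 genes past 2-fold each time, 79 to 85 past the test against 0 (87 with all arrays), cytosolic medians of -0.26 to -0.22, mitochondrial medians of 0.02 to 0.04 and differences of -0.28 to -0.25. Of 611 values of named genes under alternatives, 595 kept their side of the threshold, 17 of them with the other sign, all in 7 genes that had not passed and none beyond 0.0712 in size; 13 lost the call, 2 gained it and 1 reversed: Eif4e2 was at 0.19 with the probe of smallest SD, an alternative chosen after seeing the data, as were the use of genes with 1 probe and leaving out Gars and Kars (cytosolic median -0.24, difference -0.27). No paired analysis was possible because the arrays form 1 group. Depth here is signal over background, which is unknown, so dim probes could not be set apart.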
